A study of Nothobranchius furzeri with 15 samples.

Results

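Brain was set against skin in the turquoise killifish Nothobranchius furzeri, using the 5 brain and 5 skin libraries among the 15 RNA sequencing libraries of a study that also sampled liver. The libraries were chosen by their tissue label. All fish were of strain GRZ and 12 weeks old, and the labels give neither their sex nor a treatment. Brain libraries carry the numbers 10, 11, 13, 14 and 15 in their titles, and skin libraries the numbers 5, 6, 7, 13 and 14. The series calls them biological replicates, but no label says whether brain 13 and skin 13, or brain 14 and skin 14, came from a single fish.

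Brain and epidermis both arise from the ectoderm of the embryo. The brain forms from the neural plate and consists mainly of neurons and glia, which signal through synapses and ion channels. The epidermis forms from the surface ectoderm as a layered sheet of cells rich in keratin. Dissected skin also holds dermis, scales, pigment cells, vessels and nerves, so it is ectodermal only in part. In bulk tissue, fewer cells of a type and less RNA per cell cannot be told apart.

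The unit of measurement was the entry of a killifish transcript catalogue, to which the authors attached a zebrafish gene identifier. The catalogue has 18311 entries, and 16378 of them had enough reads to be tested. The files do not pair the zebrafish identifiers with gene names, and 0 identifiers of any kind matched the 38438 genes of the RefSeq table of assembly NfurGRZ-RIMD1. Entries are therefore named by identifier, no gene name or role is assigned to them, and markers of neurons, glia, keratinocytes or other cell types could not be looked up to check the tissue labels. Levels are given as counts-per-million scaled by TMM, called CPM below, which corrects for a few very abundant transcripts taking up much of a library. TMM sets the centre of all entries close to equality between the tissues, with a median log2 fold change of 0.03, whereas unscaled counts had a median of 0.77 in favour of brain. Every direction below is relative to that centre.

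Total counts ranged from 19.6 to 30.8 M in brain and from 17.7 to 22.2 M in skin. The most abundant 1299 ± 138 entries made up 50% of the counts in brain, and 331 ± 82.0 did so in skin (SD, n = 5). By a 2-sided exact permutation test of this difference p was 0.00794, which no arrangement of 5 against 5 can undercut, or 0.0119 after adjustment over 3 tests. Skin 7 stood apart from the other skin libraries. It held 217 entries at 10 or more times the highest level of the other 4 skin libraries, where no other skin library held more than 1. A minimum of 100 counts was required, so raised entries with fewer counts are not included. Brain 10 held 10 such entries against at most 1 in another brain library. The main counts are also given without skin 7, and the calls for the raised entries without the library that raised them.

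Most entries differed between brain and skin. At an adjusted p under 0.05 by edgeR's quasi-likelihood test, 12211 of 16378 entries (74.6%) passed, of which 6139 (37.5% of those tested) were higher in brain and 6072 (37.1%) higher in skin. The median change among entries that passed was 3.03-fold for those higher in brain and 3.33-fold for those higher in skin. In 10440 of the 12211 entries (85.5%) the 5 libraries of the higher tissue all lay above the 5 of the lower tissue, against 10463 of all 16378 tested entries (63.9%). Without skin 7, 12402 entries passed, 6470 of them higher in brain and 5932 higher in skin. The even balance between the tissues depended on the scaling, since without it 71.0% of the calls were higher in brain, against 50.3% with TMM.

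**Figure D1:**
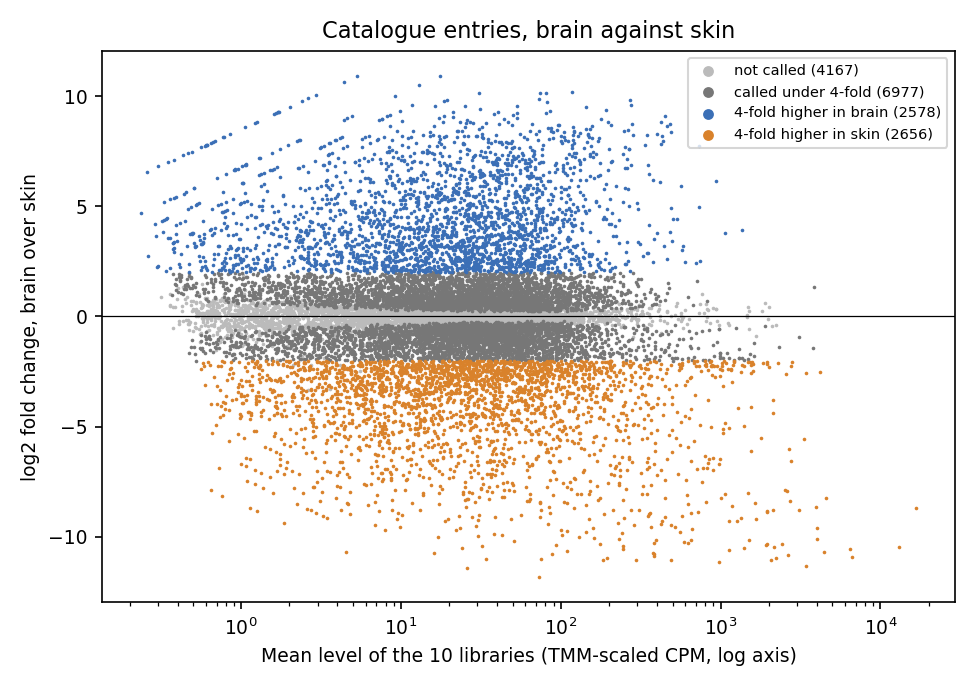
Log2 fold change of brain over skin (vertical axis) against the mean level of the 10 libraries in TMM-scaled CPM (horizontal log axis), 1 point per tested entry. The 2578 entries at least 4-fold higher in brain and the 2656 at least 4-fold higher in skin are coloured.

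Among entries that passed the test, differences of 4-fold or more were fitted for 2578 in favour of brain (15.7% of those tested) and 2656 in favour of skin (16.2%). The test was against no difference and not against 4-fold. Without scaling the numbers were 3591 and 1790. The larger folds that follow were counted with scaling. Towards larger folds the balance shifted. At least 16-fold higher levels were fitted for 1298 entries in brain and 1053 in skin, and at least 64-fold higher levels for 590 in brain and 459 in skin. At 256-fold and above the numbers were 164 for brain and 184 for skin. Some of these rest on counts at the limit of detection. Of the entries at least 4-fold higher in brain, 32 had no count in any skin library, and of those at least 4-fold higher in skin, 6 had no count in any brain library. A count of 0 in a single library leaves room for 0.156 to 0.212 CPM, depending on the library, in skin, and for 0.0767 to 0.116 CPM in brain, taking 3 counts as the limit and counting error alone. The fitted fold of such entries depends on a small added count and is not a bound.

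**Figure D2:**
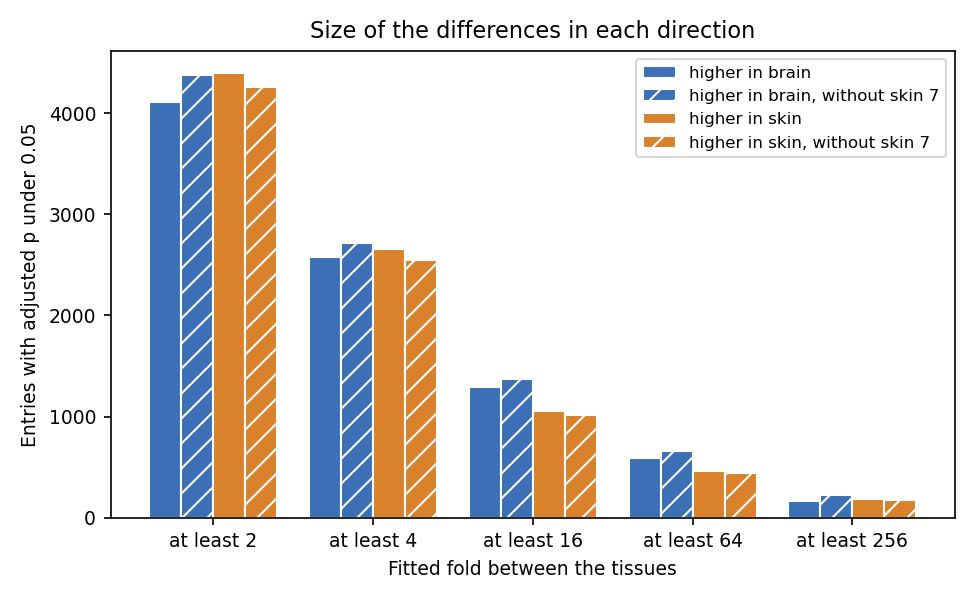
Number of entries with adjusted p under 0.05 (vertical axis) at or above 5 fitted fold sizes (horizontal axis), by direction, with all 10 libraries (plain bars) and without skin 7 (hatched bars). At 16-fold and at 64-fold the numbers for brain are above those for skin in both fits, while at 256-fold brain has 164 and skin 184 with all libraries, and brain 230 and skin 178 without skin 7.

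The 2656 entries at least 4-fold higher in skin held 55.6% ± 3.10 of all skin counts (SD, n = 5) and 6.87% ± 0.457 of brain counts. The 2578 entries at least 4-fold higher in brain held 27.6% ± 1.67 of brain counts and 1.14% ± 0.125 of skin counts. These entries were picked on the same libraries, so the shares are a description. Large differences in favour of skin were most frequent among abundant entries. In the 25% of entries with the highest mean level, 21.9% were at least 4-fold higher in skin and 15.0% at least 4-fold higher in brain. In the 25% with the lowest mean level, the shares were 16.1% for skin and 17.4% for brain. The mean level was taken over the compared libraries, so a high level in either tissue by itself raises the rank of an entry. The shares by mean level were not computed without scaling.

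To show single entries, the most abundant ones by reads per kilobase of entry and per-million counted reads (RPKM) were taken in each direction, among those at least 4-fold apart with no overlap between the tissues. The highest in brain was Nofu_gene_3_0018779, paired with zebrafish gene ENSDARG00000055216. It stood at 1758 CPM in brain 10, 3037 in brain 11, 3100 in brain 13, 2888 in brain 14 and 1970 in brain 15. In skin it stood at 131 CPM in skin 5, 194 in skin 6, 147 in skin 7, 192 in skin 13 and 169 in skin 14. Brain 10 and brain 15 were lower than the other brain libraries, and the lowest brain library was still far above the highest skin library. Brain exceeded skin by 3.94 ± 0.23 on the log2 scale (SE; adjusted p = 1.17e-08 by edgeR), or 15.3-fold, and the difference stayed between 3.86 and 4.05 when single libraries were left out. The 3 other entries with the same zebrafish identifier did not share this pattern. A pair of them passed the test as higher in skin, with log2 fold changes of -1.96 and -1.33, and the remaining one missed the threshold at 1.39 ± 0.87 (SE; adjusted p = 0.166 by edgeR). Their means in brain were at most 7.09 CPM, and the pair higher in skin averaged 27.6 and 11.9 CPM there.

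The second brain entry was Nofu_gene_3_0000632 (ENSDARG00000019702). Its level was 1910 CPM in brain 10, 2159 in brain 11, 2022 in brain 13, 1707 in brain 14 and 2172 in brain 15. Skin showed 160 CPM in skin 5, 125 in skin 6, 170 in skin 7, 156 in skin 13 and 104 in skin 14. The brain libraries were close together, within 1.27-fold of each other, and the tissues did not overlap. Brain was higher by 3.80 ± 0.19 on the log2 scale (SE; adjusted p = 2.67e-09 by edgeR). Another entry shares its zebrafish identifier and was also higher in brain, at 185 ± 55.4 CPM against 11.4 ± 4.20 CPM in skin (SD, n = 5; log2 fold change 4.02, edgeR adjusted p = 3e-07).

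The most abundant entry of skin by RPKM was Nofu_gene_3_0013972 (ENSDARG00000022817), at 21704 ± 5976 RPKM in skin and 26.7 ± 13.4 RPKM in brain (SD, n = 5). On the CPM scale it stood at 22523 in skin 5, 40197 in skin 6, 25161 in skin 7, 28986 in skin 13 and 14044 in skin 14. Brain showed 7.59 CPM in brain 10, 11 in brain 11, 19.6 in brain 13, 27.1 in brain 14 and 28.0 in brain 15. Both tissues varied about as much as a few-fold between libraries, and the gap between them was far wider. On the log2 scale brain minus skin was -10.46 ± 0.57 (SE; adjusted p = 6.71e-09 by edgeR), or 1405-fold higher in skin, and each brain library still held at least 284 counts.

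Nofu_gene_3_0000275 (ENSDARG00000042535) came next in skin by RPKM. The length implied for it is exactly 2000 bases, a value shared by many entries and in doubt, as described further on, so its rank by RPKM is uncertain. In CPM it was above the preceding entry, at 33315 ± 13027 against 26182 ± 9566 in skin (SD, n = 5). Its level was 22607 CPM in skin 5, 44069 in skin 6, 36409 in skin 7, 46476 in skin 13 and 17014 in skin 14. In brain it was 96.0 CPM in brain 10, 61.1 in brain 11, 77.0 in brain 13, 75.5 in brain 14 and 87.3 in brain 15. As for the preceding entry, skin 14 was the lowest skin library and the brain libraries lay far below it. Brain minus skin was -8.71 ± 0.40 on the log2 scale (SE; adjusted p = 1.57e-09 by edgeR). A second entry with this zebrafish identifier was higher in skin as well, at 5207 ± 2075 CPM against 21.2 ± 2.52 CPM in brain (SD, n = 5; log2 fold change -7.94, edgeR adjusted p = 1.28e-09). How reads that match both entries were counted is not given in the sources used here.

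The 10 most abundant entries of each direction differed in how much of the library they filled. Those of skin had mean levels from 2677 to 21704 RPKM in skin and took 8.83% ± 2.09 of its counts (SD, n = 5). Those of brain had mean levels from 642 to 1725 RPKM in brain and took 1.52% ± 0.230 of its counts. Log2 fold changes for brain over skin ran from 2.42 to 8.84 among the brain entries and from -11.32 to -2.06 among the skin entries.

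**Figure D3:**
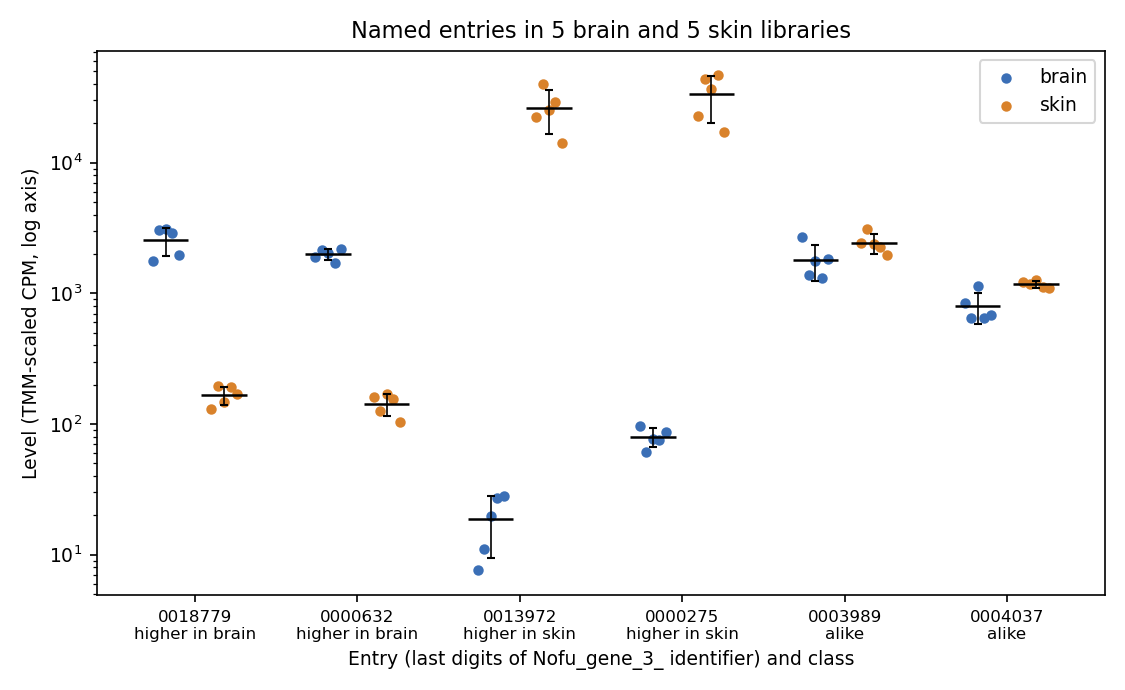
Level in TMM-scaled CPM (vertical log axis) of 6 entries in the 5 brain libraries (blue points) and 5 skin libraries (orange points), with the mean (line) and SD (bar). The pairs of entries higher in brain and in skin show no overlap between tissues, while the pair within 2-fold lies at similar levels in both.

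A large set of entries was measured at nearly the same level in both tissues. For 5094 entries (31.1% of those tested) the 95% interval of the difference lay within 2-fold in either direction. Of these, 1890 passed the test nonetheless, with a difference that was small but large against its standard error. A further 963 entries (5.88%) neither passed the test nor had an interval within 2-fold, so that for them neither a difference nor its absence was shown. Their median standard error was 0.41 on the log2 scale, against 0.15 for the entries within 2-fold. Without scaling, 1732 of the 5094 entries were still within 2-fold, so membership of this set rests on the TMM centre. Without skin 7, 4797 of them were.

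The most abundant entry within 2-fold was Nofu_gene_3_0003989 (ENSDARG00000036784). It stood at 2691 CPM in brain 10, 1381 in brain 11, 1758 in brain 13, 1320 in brain 14 and 1825 in brain 15. In skin its level was 2415 CPM in skin 5, 3093 in skin 6, 2404 in skin 7, 2245 in skin 13 and 1950 in skin 14. The tissues overlapped, with brain 10 above most skin libraries. The log2 fold change was -0.43 with a 95% interval of -0.91 to 0.05 (edgeR adjusted p = 0.0928), and without brain 10 it was -0.62 (adjusted p = 0.0123). Nofu_gene_3_0004037 (ENSDARG00000021905) averaged 793 ± 207 CPM in brain and 1171 ± 68.2 CPM in skin (SD, n = 5). Its log2 fold change of -0.56 had an interval of -0.95 to -0.17 (edgeR adjusted p = 0.0128), and it was 0.17 without scaling. With the replicate number as a block it was -0.28 and no longer passed (edgeR adjusted p = 0.507). In that fit the skin side rests on skin 13 and skin 14 alone, since the numbers of the other skin libraries occur in no other tissue. Nofu_gene_3_0003989 likewise changed sign without scaling, to 0.32 (edgeR adjusted p = 0.14), so neither entry has a direction that is free of the scaling. Another entry with the zebrafish identifier of Nofu_gene_3_0004037 passed the test as higher in skin. It averaged 62.4 ± 5.89 CPM in skin and 30.1 ± 3.34 CPM in brain (SD, n = 5; log2 fold change -1.05, edgeR adjusted p = 3.17e-06).

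The liver libraries, which took no part in the comparison, showed where another organ stands on the same entries. Most entries at least 4-fold higher in brain than in skin were also nearer to skin than to brain in liver. Their median level was 29.5 CPM in brain, 1.25 CPM in skin and 0.905 CPM in liver, with all 15 libraries scaled together. For 90.8% of these entries the mean log2 level in liver was nearer to skin than to brain, for 57.5% it was at or under the level in skin, and for 4.03% it reached or exceeded the level in brain. Picking entries for a high level in brain or in skin by itself favours a liver level nearer to the tissue where they are lower. The share over all tested entries is not given here. Together the 2578 entries held 9.68% ± 1.2 of liver counts (SD, n = 5), against the 1.14% of skin counts given above. Entries at least 4-fold higher in skin than in brain had a median level in liver between those of brain and skin. That median was 37.1 CPM in skin, 8.02 CPM in liver and 2.37 CPM in brain. Liver was nearer to brain for 60.2% of them, lay between the tissues for 53.9% and reached or exceeded the level of skin for 22.3%. With unscaled levels of the same entries, the shares nearer to the lower tissue were 95.2% for the brain entries and 74.1% for the skin entries. The positions of the skin entries then moved as well, with 50.6% at or under the level of brain instead of 23.9%, 37.2% between the tissues and 12.1% at or above skin. With skin 7 left out of the fit and of the skin mean, liver was nearer to the lower tissue for 88.8% of the brain entries and 62.9% of the skin entries.

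**Figure D4:**
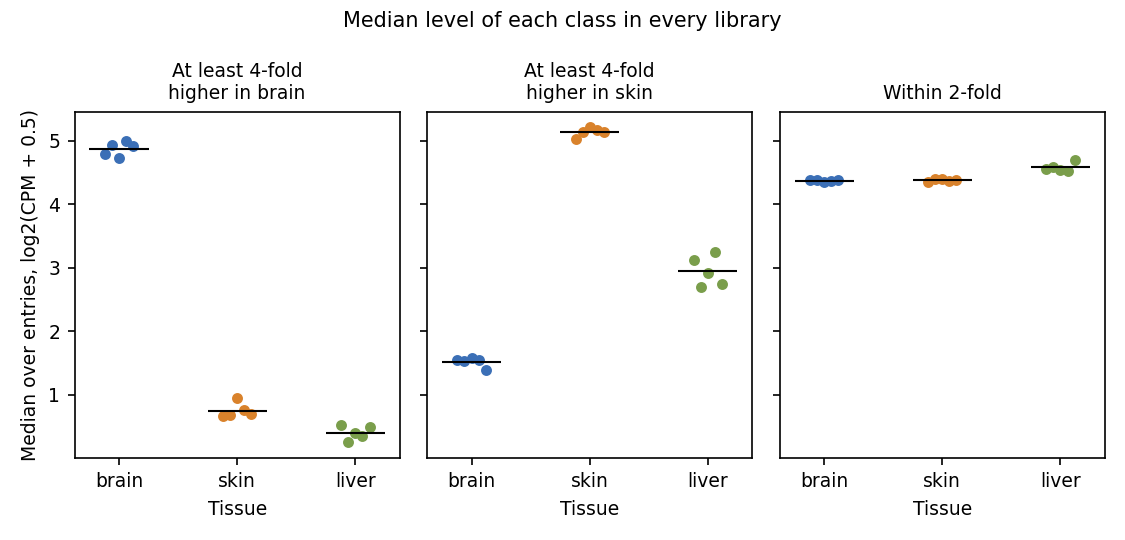
Median over entries of log2(CPM + 0.5) (vertical axis) in each of 15 libraries, by tissue (horizontal axis), for entries at least 4-fold higher in brain, at least 4-fold higher in skin, and within 2-fold between brain and skin. Points are libraries and lines are means. Liver lies near skin for the brain entries, between 2.69 and 3.25 for the skin entries, and slightly above both tissues for the entries within 2-fold.

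Some entries with similar levels in brain and skin were set apart from liver. Of the 5094 entries within 2-fold, 237 (4.65%) were at least 4-fold lower in liver, with all 5 liver libraries under all 10 of brain and skin. In the opposite direction, 229 (4.5%) were at least 4-fold higher in liver with the same separation. Over all tested entries the same criteria were met by 1753 (10.7%) in the lower direction and 913 (5.57%) in the higher. These are counts of separated groups and not of a test. Without scaling the numbers within the set were 652 (12.8%) lower and 86 (1.69%) higher in liver, and over all tested entries 22.4% and 3.03%. Within the set, the directions were about equally frequent with scaling, and lower in liver was the more frequent only without it. Over all tested entries, lower in liver was the more frequent with and without scaling, by a gap that depended on the scaling.

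Many zebrafish identifiers are attached to several killifish entries. For 1521 identifiers with exactly 2 entries, both entries could be tested. Both were higher in brain in 371 pairs (24.4%) and both higher in skin in 290 (19.1%). In 284 pairs (18.7%) one entry was called higher in brain and the other higher in skin, and in 38 of them each difference was at least 4-fold. Without skin 7, 286 of 1550 pairs were opposite. By contrast, 297 pairs had both entries at least 4-fold apart in a common direction. Over all tested entries, 37.5% were called higher in brain and 37.1% higher in skin, and 15.7% and 16.2% at 4-fold or more. Opposite calls would thus be frequent among unrelated entries too, and the pairs were not tested against such entries. Pairs numbered next to each other in the catalogue were opposite in 183 of 971 cases (18.8%), and the remaining pairs in 101 of 550 (18.4%). In 274 of the 284 opposite pairs exactly 1 entry is the best bidirectional hit of the zebrafish gene, that is, each is the other's best match. The best hit was the entry higher in brain in 154 pairs and the entry higher in skin in 120. Whether 2 entries are separate genes or pieces of 1 transcript is not stated.

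Best bidirectional hits have the clearer zebrafish counterpart. Both entries named above as higher in brain are best hits. Nofu_gene_3_0013972 and Nofu_gene_3_0000275, named as higher in skin, are not, nor is Nofu_gene_3_0004037. For ENSDARG00000042535 and ENSDARG00000021905 the other entry is the best hit. At least 4-fold higher levels in brain were found for 14.5% of 12763 tested best hits and for 20.1% of 3615 other entries. For skin the shares were 15.8% and 17.7%. Entries within 2-fold made up 32.8% of best hits and 25.2% of the others. These shares were not tested against each other, and the other entries passed the count filter less often (76.1% against 94.1%).

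Long entries leaned towards brain. Entry lengths were computed from the deposited counts and RPKM values. The median length was 2752 bases for entries at least 4-fold higher in brain, 2406 bases for those at least 4-fold higher in skin and 2726 bases for those within 2-fold. Of the 4-fold differences in the shortest 25% of entries (median 1256 bases), 45.5% were in favour of brain, and in the longest 25% (median 5201 bases) 54.7%. Without scaling both shares were higher, at 63.3% and 72.4%, and again higher for the longest entries. Without skin 7 they were 47.0% and 55.8%. A length of exactly 2000 bases was implied for 740 entries and of 3700 bases for 131, where the next most common length occurred 27 times, so some lengths may not be those of the transcripts. With these entries left out the medians were 2783 bases for brain and 2489 for skin.

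Skin libraries differed from each other more than brain libraries did, by a smaller margin once skin 7 was left out. The biological coefficient of variation, edgeR's measure of the spread between libraries beyond counting error, was 0.210 in brain and 0.349 in skin, and 0.245 in skin without skin 7. Leaving out any other skin library gave 0.353 to 0.366, and leaving out single brain libraries gave 0.192 to 0.231 in brain. Among 11478 entries with a mean of at least 10 CPM, the SD of log2 levels was larger in skin for 66.1%, and for 58.9% without skin 7. The median SD was 0.20 in brain and 0.26 in skin, and 0.23 in skin without skin 7.

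The calls of a small group of entries depended on skin 7. Of its 217 raised entries, which together held 2.83% of its counts, 137 were tested. With skin 7 in the comparison, 76 of them were called higher in skin and 7 higher in brain. Without it, 25 were called higher in skin and 70 higher in brain. Over all tested entries, 37.1% were called higher in skin and 37.5% higher in brain. The raised entries were picked for a high level in skin 7, which favours a shift towards brain once that library is left out. Over all entries tested in both fits, 11864 calls were shared, and 12 of these had the opposite direction without skin 7. Another 347 entries were called with skin 7 alone, 236 of them as higher in skin, and 446 without it alone, 356 of them as higher in brain. Of the 217 entries, 132 were also at least 10 times higher in liver 14 than in any of the other 4 skin libraries. The same count is not given here for the other liver libraries or for all entries, so it does not set liver 14 apart. What the raised transcripts of skin 7 come from was not tested.

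Brain 10 held 10 raised entries that together made up 0.495% of its counts and at most 0.0101% in any other brain library. They were noticed after the values had been seen. The most abundant of them, Nofu_gene_3_0007161 (ENSDARG00000038185), had 81428 counts in brain 10, which ranked it 9th among all entries of that library. It had 9 counts in brain 11, 29 in brain 13, 2 in brain 14 and 7 in brain 15. In skin it had no count in skin 5, 2 in skin 6, 9 in skin 7, 1 in skin 13 and 2 in skin 14. Only brain 10 was high, and the count filter left this entry out of the test. The other 9 entries had from 167 to 57151 counts in brain 10, at most 1914 in any other brain library and at most 67 in any skin library. Of the 10 entries, 3 were tested, and with brain 10 in the comparison all 3 were called higher in brain, a direction that the way they were picked favours. Without brain 10, all 3 were still tested and 2 were called higher in brain. Over all tested entries of the main comparison, 37.5% were called higher in brain.

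A different pattern was seen in some of the most abundant transcripts of brain, whose level varied widely between brain libraries. Among the 30 entries with the highest mean RPKM in brain, 5 varied at least 10-fold between brain libraries, where the other 25 varied at most 4.16-fold. This rule was set after seeing the values. The 5 entries are Nofu_gene_3_0009908 (ENSDARG00000088839), Nofu_gene_3_0004449 (ENSDARG00000087438), Nofu_gene_3_0020143 (ENSDARG00000033364), Nofu_gene_3_0016894 (ENSDARG00000022659) and Nofu_gene_3_0002096 (ENSDARG00000069977). The length implied for Nofu_gene_3_0016894 is 2000 bases, the value in doubt, so its rank by RPKM is uncertain. Nofu_gene_3_0009908 had the highest mean RPKM in brain of the 5, at 8480 ± 7264 RPKM (SD, n = 5). It stood at 715 CPM in brain 10, 1852 in brain 11, 3951 in brain 13, 185 in brain 14 and 4789 in brain 15. In skin it stood at 3583 CPM in skin 5, 916 in skin 6, 1289 in skin 7, 1940 in skin 13 and 791 in skin 14. Brain 14 was lower than every skin library, and brain 13 and brain 15 were higher than every one of them.

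The 5 entries moved together across libraries. All 5 were lowest in brain 14 among brain libraries and highest in skin 5 among skin libraries, and 4 of them ranked the brain libraries in a common order. Together they took from 0.104% of the counts in brain 14 to 2.43% in brain 15, and from 0.248% in skin 6 to 1.46% in skin 5. None of the 5 passed the test between brain and skin, with log2 fold changes from -0.12 to 0.62 and edgeR adjusted p from 0.439 to 0.899. They were picked for a large spread between brain libraries, which by itself makes passing unlikely. Their 95% intervals lay between -1.85 and 2.17. For none of the 5 was a difference of more than 2-fold in favour of brain shown to be absent. In favour of skin, such a difference lay outside the intervals of Nofu_gene_3_0004449 (-0.92 to 2.17) and Nofu_gene_3_0002096 (-0.97 to 2.15). For the other entries it was not shown to be absent. Leaving out single libraries moved the 5 log2 fold changes between -0.78 and 1.16. In liver, Nofu_gene_3_0009908 ranged from 2964 RPKM in liver 15 to 19526 RPKM in liver 13. All 5 entries were highest in liver 13 among liver libraries. By RPKM they varied 5.76- to 16.9-fold between liver libraries and 3.52- to 7.89-fold between skin libraries, so wide variation was not confined to brain.

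**Figure D5:**
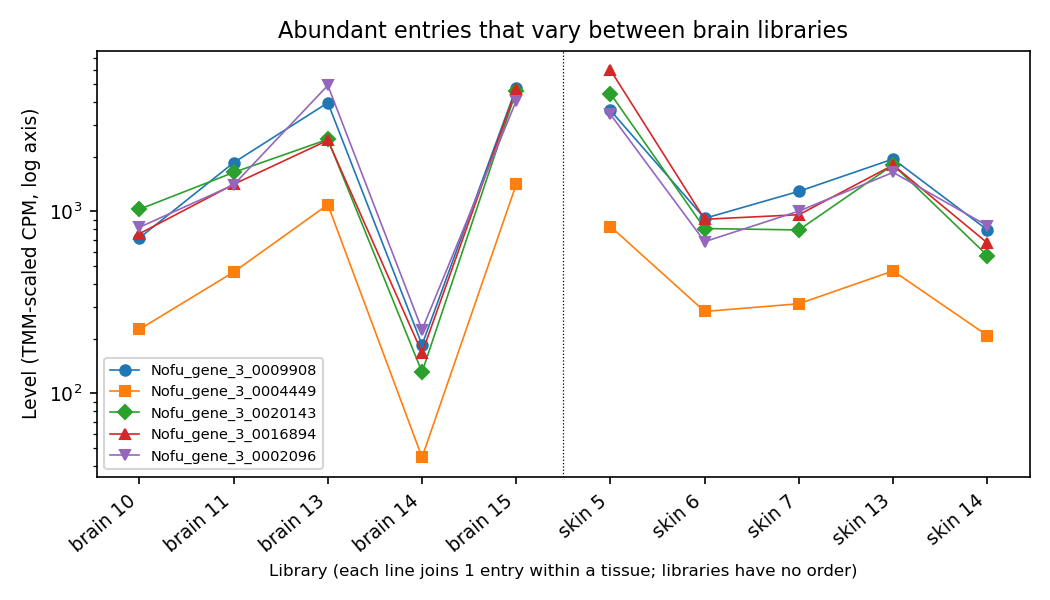
Level in TMM-scaled CPM (vertical log axis) of 5 abundant entries in each brain and skin library (horizontal axis), 1 line per entry and tissue. The entries rise and fall together, with the lowest levels in brain 14 and the highest skin levels in skin 5.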

How the data were processed

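The 5 brain and 5 skin samples were grouped by their tissue label. The authors deposited raw read counts per catalogue entry and per gene model of the genome, and RPKM values, per the file headers. Tools listed, with no role, per the submitters' processing notes, are featureCounts 1.4.3-p1, TopHat2 2.0.6, Bowtie and CASAVA 1.8.2. For the genome build, annotation, strandedness and multiply matching reads, the sources used here give nothing. In the RPKM sheet, 60 columns of samples outside the series were not used.

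Catalogue counts were tested with edgeR 4.0.16 (R 4.3.3): filterByExpr (minimum count 10), TMM, quasi-likelihood fit of the 10 libraries, Benjamini-Hochberg adjustment over all 16378 entries, threshold 0.05. The SE is the fold change divided by the root of F, and 95% intervals use it. The test was also run on simulated counts in which few entries changed and all libraries had a common spread. That run cannot show how the test or the scaling behaves where most entries differ, as here. DESeq2 1.42.0 and limma 3.58.1 on log2(RPKM + 0.1) or log2(RPKM + 1) served as alternatives. Total counts of 17.7 to 30.8 M set the precision; the 95% intervals carry the spread between libraries, whereas the detection floors cover counting error only. P-values weigh the difference between tissues against the spread between samples described as biological replicates. The main fit treats the 10 libraries as independent, although no label says whether same-numbered brain and skin libraries came from a single fish.

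Entries were named by a rule of abundance: at least 4-fold, no overlap between tissues, highest mean RPKM, 2 per direction, and 2 within 2-fold. The comparison, rules and 33 gene lists were chosen with earlier results of these data known. The lists are given by gene symbol and could not be matched to any identifier, so no list was tested. No sequence of these entries was at hand.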

Additional observations from a re-analysis of the deposited data

Results flagged for a closer look

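Of 32 groups of 5 libraries examined by Dixon's test (critical value 0.71), 7 held a library far from the rest. Chance flags about 1 in 20 groups, or 1.6 of 32, and these groups are not independent. Some of them were examined because a library or an entry had already been seen to stand out, and the chance rate does not apply to those.

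The count of entries raised at least 10-fold over the rest of the tissue, with a minimum of 100 counts, reached 217 in skin 7. None of the remaining skin libraries had more than 1. The same count was 10 in brain 10 and at most 1 in the other brain libraries. Nofu_gene_3_0007161 stood at 2911 RPKM in brain 10 and at most 1.53 RPKM in the other brain libraries. In skin 7 it was also the highest of the skin libraries, at 0.446 RPKM, a value that rests on 9 counts.

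In skin 5, Nofu_gene_3_0016894 stood at 2393 RPKM, against 303 to 633 in the other skin libraries. Nofu_gene_3_0020143 stood at 1775 RPKM there, against 259 to 634. Nofu_gene_3_0003989, which was within 2-fold between the tissues, stood at 3804 RPKM in brain 10 and at 2024 to 2525 RPKM in the other brain libraries.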

How the results depend on the processing

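The main dependence was on scaling. Without it, 9425 entries were called higher in brain and 3847 higher in skin (71.0% of calls in favour of brain), and 3289 were within 2-fold. For the entries picked with TMM as at least 4-fold apart, unscaled levels were also compared. Liver then lay nearer to the lower tissue for 95.2% of the brain entries and 74.1% of the skin entries. The shares were 88.8% and 62.9% with scaling but without skin 7, chosen after seeing the data. Limma on RPKM, which are not TMM-scaled, gave 9553 higher in brain and 3769 in skin with a pseudocount of 0.1, and 9547 and 3764 with 1 (71.7% in favour of brain with each), with 1647 and 1143 entries at least 4-fold higher in skin. Nofu_gene_3_0004037 turned to 0.17 without scaling and to 0.15 with either RPKM pseudocount.

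Leaving out single libraries gave 11806 to 12402 calls, 5958 to 6470 higher in brain, 5848 to 6032 higher in skin, 2580 to 2718 and 2545 to 2719 at least 4-fold higher in brain and skin, 4733 to 5118 within 2-fold, and 50.2% to 52.2% of calls in favour of brain, the last without skin 7. The genome table (23546 gene models) gave 15431 calls in 20259 tested. Without skin 7 it gave 52.4% in favour of brain and 3994 at least 4-fold higher in brain, an alternative chosen after seeing the data. Of the opposite pairs, 134 were at least 2-fold apart in each direction.

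A fit of all 15 libraries with the replicate block called 9508 entries, 4701 higher in brain and 4807 higher in skin, with 3046 within 2-fold. Only numbers 13 and 14 occur in both tissues, and the deviations of these same-numbered libraries correlated at 0.077 and 0.312, against -0.027 and -0.12 for the differently numbered ones. With 2 shared numbers and no label that ties them to fish, they were not taken to pair the libraries. For the 4 entries named as higher in one tissue, 78 of 78 alternatives kept direction and call. These 4 were named for large differences without overlap in the same libraries, a rule that favours this outcome. Of the pair within 2-fold, Nofu_gene_3_0004037 lost its call under the replicate block (-0.28, edgeR adjusted p = 0.507), and Nofu_gene_3_0003989 passed the threshold without brain 10 (-0.62). The alternatives for gene lists were not run, since no list could be matched. Apart from scaling, the cause of these shifts was not tested. The counts of entries near 0 limit the largest folds.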
